A study of Mus musculus with 6 samples.

Results

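Hsp90ab1 and Ppia, a pair of abundant protein-folding genes, were followed through the differentiation of mouse C2C12 cells. Each has 1 coding probe on the array, printed as 20 spots. The Ppia probe was chosen by its probe name and the Hsp90ab1 probe as the custom coding probe that carries the RefSeq mRNA accession of that gene (NM_008302.3; NM_008907.1 for Ppia). They are 2 of the 15 coding probes with a gene accession and 2 of the 60915 probes analysed. The rule that picked these probes used names and accessions and no measured value. Earlier results of these data were, however, already known when the genes were chosen.

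C2C12 is a long-established mouse cell line whose myoblasts, the precursors of skeletal muscle fibres, fuse into myotubes when serum is withdrawn. The series holds 3 arrays of myoblasts, taken from growth medium with 10% fetal bovine serum, and 3 arrays of myotubes, obtained by incubation in medium with 2% horse serum once the cells were near confluence. The cells carry no stated genetic change, and all groups are the same line. The labels describe the arrays as independent experiments. The labels do not state how long the cells stayed in differentiation medium. Labelled RNA was amplified with random primers after removal of ribosomal RNA and read in 1 colour.

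HSP90 is a cytosolic chaperone that uses ATP to bring folded or partly folded client proteins, such as kinases and steroid receptors, into an active shape. Hsp90ab1 encodes its beta form, which is made in most cells without stress, whereas the alpha form is the more stress-inducible. In muscle, HSP90 acts with the co-chaperone UNC45 in the folding of myosin. Ppia encodes cyclophilin A, an abundant cytosolic peptidyl-prolyl isomerase that turns the bond before proline residues, binds cyclosporin A and can be secreted. Both genes are often taken as references of steady expression in quantitative PCR. Ppia also has many processed pseudogenes in the mouse genome, and whether its probe binds transcripts of such copies was not tested.

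The other parts of the folding machinery could not be read by name. Of 71 genes listed for the HSP90 family, its co-chaperones, HSP70 and J proteins, small heat shock proteins, chaperonins, heat shock factors and prolyl isomerases, 0 have a probe that carries a gene accession. The same holds for 0 of 22 marker genes of myoblasts, myotubes, fibroblasts, adipocytes and osteoblasts, so the cell state stated in the labels could not be checked against its markers. In these bulk samples a change of cell composition and a change of RNA per cell cannot be told apart.

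Hsp90ab1 gave more signal in myotubes than in myoblasts on every array. The median processed signal of its spots was 54755, 58729 and 56303 intensity units on myoblast replicates 1, 2 and 3. It was 77232, 86818 and 104846 on myotube replicates 1, 2 and 3. All 3 myotube arrays therefore lay above all 3 myoblast arrays before any scaling.

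Arrays differ in overall brightness, so levels were also expressed as log2 signal minus the 75th percentile of all probes on the same array. On this scale the level of Hsp90ab1 was 7.23, 7.28 and 7.24 in the myoblasts and 7.48, 7.83 and 7.54 in the myotubes. The groups did not overlap, and the myotube arrays were spread more widely, with replicate 2 the highest. The mean rose from 7.25 ± 0.03 to 7.61 ± 0.19 (SD, n = 3 each), which is 1.29-fold. In limma across the 35416 probes tested, the log2 change was 0.36 (SE 0.12, 95% interval 0.08 to 0.65, adjusted p = 0.0401).

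The adjusted p lay close to the threshold, and calls of this kind were common on the array. With the Benjamini-Hochberg threshold of 0.05, 50.4% of the tested probes passed in limma, 23.5% of them higher and 26.9% lower in myotubes, each as a share of all tested probes. A rise at least as large as that of Hsp90ab1 was measured for 25.4% of the tested probes. Non-overlapping groups were found for 61.6% of them, with 27.8% higher and 33.8% lower in myotubes. The call was lost without myoblast replicate 1, 2 or 3 (limma adjusted p = 0.115, 0.0999 and 0.117). It was also lost without myotube replicate 2 (0.26, limma adjusted p = 0.0821) or without myotube replicate 3 (0.40, limma adjusted p = 0.0610). The change stayed above 0 in all 18 alternatives run. Some of these alter only the variance or the set of probes tested and cannot move the estimate.

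Ppia gave nearly the same signal in both cell states as read from the scanner. The median processed signal of its spots was 218183, 215052 and 215768 in myoblasts and 210745, 186001 and 220639 in myotubes. The groups overlapped, with myotube replicate 2 the lowest array and myotube replicate 3 the highest. As log2 signal with no scaling, the level was 17.72 ± 0.0023 in myoblasts (SD, n = 3). In myotubes it was 17.66 ± 0.14 (SD, n = 3). The difference of −0.06 was smaller than the SD among the myotubes. The exact permutation test of the difference between the group means gave a two-sided p = 1.

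Once the 75th percentile was subtracted, Ppia was lower in the myotubes. Its level was 9.21, 9.17 and 9.17 in the myoblasts and 8.98, 8.92 and 8.62 in the myotubes. The groups did not overlap, and myotube replicate 3 was the lowest. The 75th percentile itself was 8.51 to 8.56 on the myoblast arrays and 8.75, 8.58 and 9.14 on myotube replicates 1, 2 and 3, so the array with the lowest scaled Ppia level was the one with the highest percentile. The mean was 9.19 ± 0.03 against 8.84 ± 0.20 (SD, n = 3 each), a log2 difference of −0.34 (SE 0.12, 95% interval −0.63 to −0.05) that missed the threshold (limma adjusted p = 0.0517). A fall at least as large was measured for 31.8% of the tested probes. Without myotube replicate 1 the difference was −0.42 and passed (limma adjusted p = 0.0176), in a fit where 64.6% of the tested probes passed and 35.2% were called lower.

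**Figure D1:**
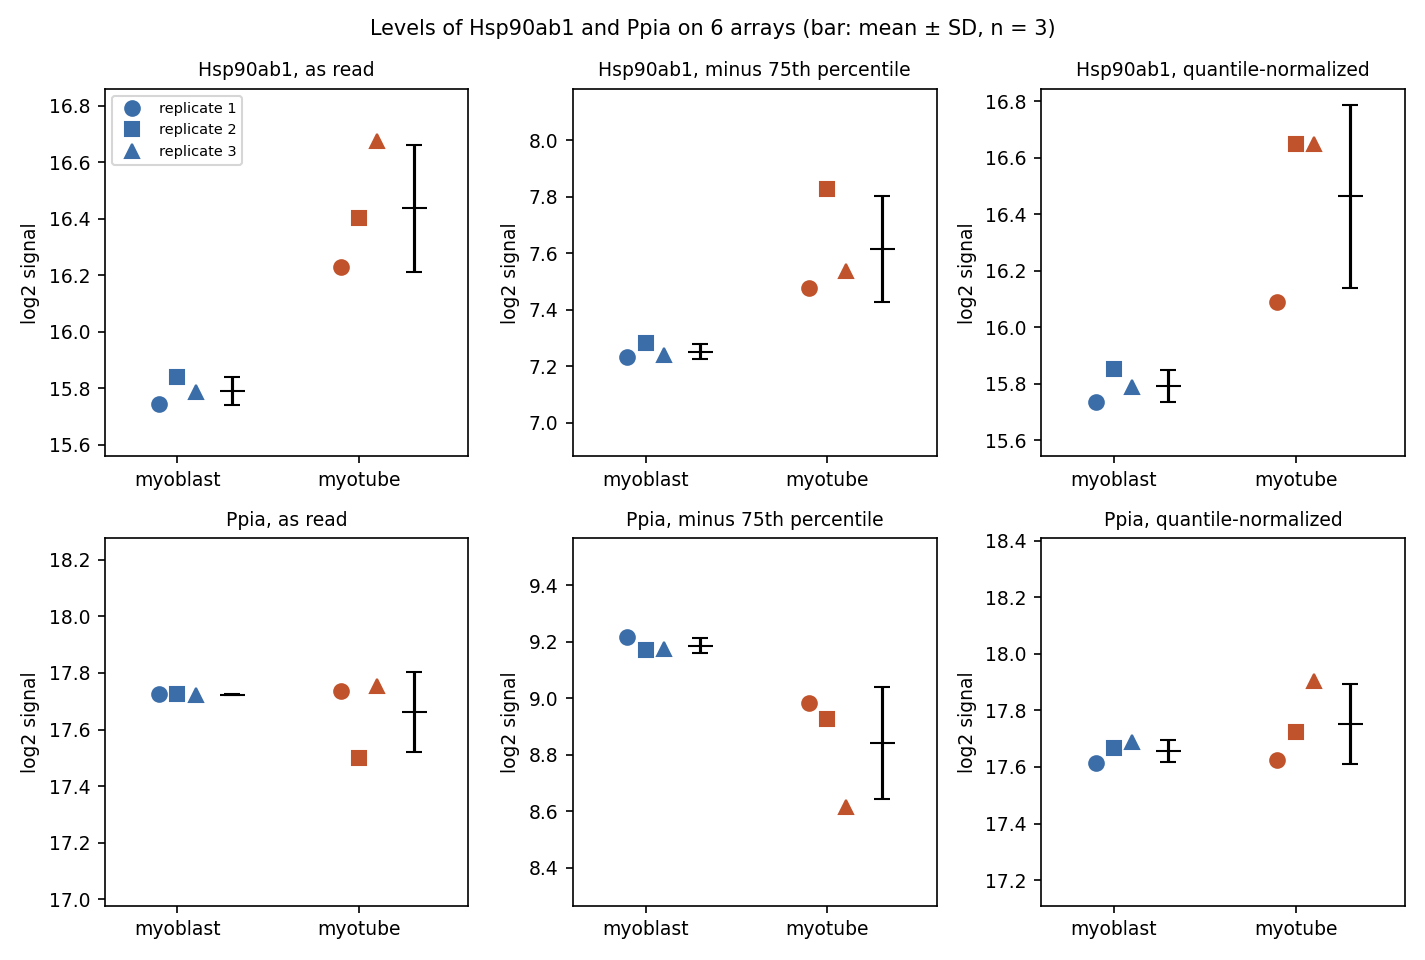
Level of Hsp90ab1 (top) and Ppia (bottom) on each array as log2 signal, as read, minus the 75th percentile of the array, and after quantile normalization. Points are arrays, with the replicate number given by the symbol, and bars are the mean and SD of 3 arrays. The myotube arrays lie above the myoblast arrays in all 3 panels for Hsp90ab1, whereas for Ppia they overlap as read, lie below after subtraction of the percentile and overlap after quantile normalization.

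The direction for Ppia thus depended on how arrays were scaled, and that for Hsp90ab1 did not. Quantile normalization, which gives every array the same distribution of values, put Ppia at 17.61, 17.67 and 17.69 in myoblasts and 17.62, 17.73 and 17.91 in myotubes. The groups overlapped and the difference turned to 0.10 (limma adjusted p = 0.463). Hsp90ab1 on the same scale was at 15.74, 15.85 and 15.79 in myoblasts and 16.09, 16.65 and 16.65 in myotubes. Its rise was larger there, at 0.67 (limma adjusted p = 0.0153), on a scale where 50.4% of the tested probes passed and 24.7% were called higher.

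With no scaling the rise of Hsp90ab1 was 0.65 (limma adjusted p = 0.0266), and 27.3% of the tested probes were called higher. The median of all tested probes then stood at 0.22, against −0.07 with the 75th percentile and −0.03 with quantile normalization. Relative to that median, Hsp90ab1 was higher by 0.43 and Ppia stood at −0.28, both with no scaling and with the 75th percentile. These match by arithmetic, because 1 number subtracted per array shifts the change of every probe alike. After quantile normalization the corresponding values were 0.70 and 0.13.

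Brightness ranks describe the same arrays without a scale. They compare probes by signal and not by transcript abundance, because probes differ in how well they bind. Hsp90ab1 lay at the 98.5, 98.7 and 98.6 percentile of all probes in myoblasts and at the 98.9, 99.4 and 99.4 percentile in myotubes, and the groups did not overlap. Ppia lay between the 99.93 and 99.95 percentile in myoblasts and between the 99.93 and 99.98 percentile in myotubes, and the groups overlapped. Ppia was thus among the brightest probes on every array. No spot of either gene was saturated, and the brightest spot of Ppia reached 25.7% to 36.5% of the scanner's limit.

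The ratio of the genes within an array does not change when a single number per array is subtracted. Because the probes differ, its level has no meaning in molecules, and only its change between arrays was compared. The log2 ratio of Hsp90ab1 to Ppia was −1.98, −1.89 and −1.94 in myoblasts and −1.51, −1.10 and −1.08 in myotubes. All myotube arrays were above all myoblast arrays, and myotube replicate 1 lay closest to the myoblasts. The mean was −1.93 ± 0.05 in myoblasts and −1.23 ± 0.24 in myotubes, each the mean and SD of 3 arrays, a difference of 0.71 or 1.63-fold. The exact permutation test gave a two-sided p = 0.1, the smallest that 3 arrays against 3 allow, so this design cannot pass 0.05. Quantile normalization gave 0.57.

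**Figure D2:**
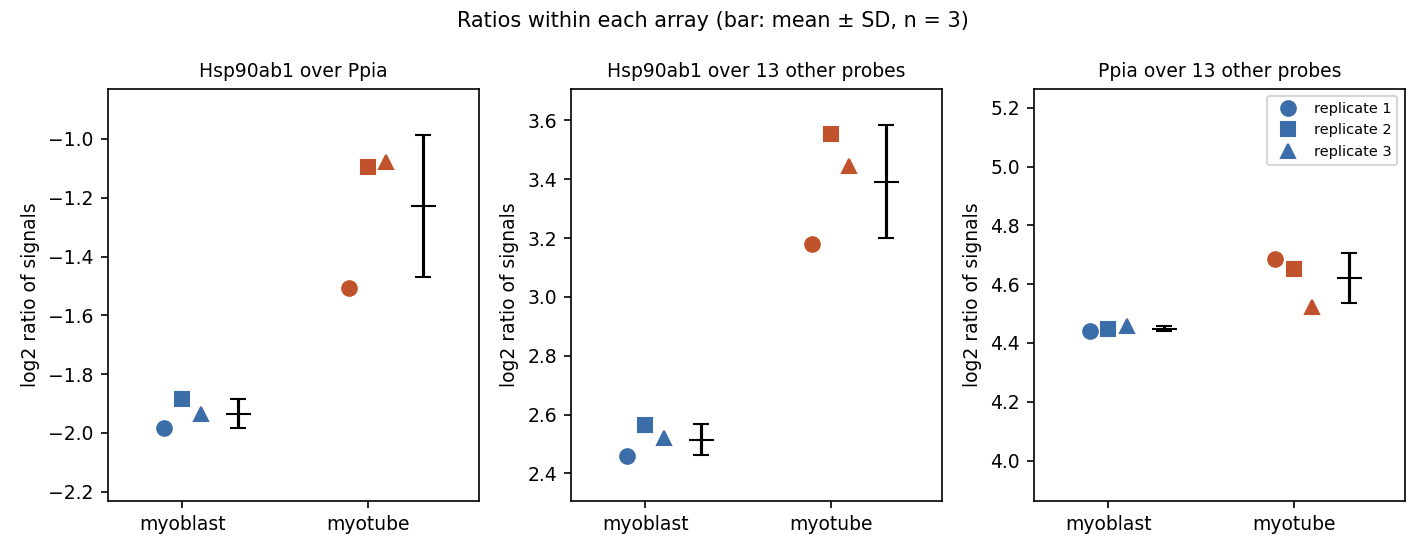
Log2 ratio of signals within each array for Hsp90ab1 over Ppia and for each gene over the mean of the other 13 named coding probes, with points for arrays and bars for the mean and SD of 3 arrays. The myotube arrays lie above the myoblast arrays in all 3 panels, by 0.71, 0.88 and 0.17 on average, and the vertical range is the same in each panel.

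Against the mean of the other 13 named coding probes, both genes were higher in myotubes, Hsp90ab1 by more than Ppia. The log2 ratio of Hsp90ab1 to that mean was 2.46, 2.56 and 2.52 in myoblasts and 3.18, 3.55 and 3.44 in myotubes, a difference of 0.88 (exact permutation test, two-sided p = 0.1). That of Ppia was 4.44, 4.45 and 4.46 in myoblasts and 4.69, 4.65 and 4.52 in myotubes, a difference of 0.17 (exact permutation test, two-sided p = 0.1). Neither pair of groups overlapped. The mean level of the 13 probes itself was 4.74 ± 0.03 in myoblasts and 4.22 ± 0.11 in myotubes, each the mean and SD of 3 arrays. With the median of the 13 in place of the mean, the differences were 1.34 for Hsp90ab1 and 0.64 for Ppia. That median was not the same probe throughout. It was Rpl13a on the myoblast arrays (6.27 to 6.32) and myotube replicate 1 (5.69). On myotube replicates 2 and 3 it was Actb (5.21 and 5.04), so these larger differences include a switch of reference probe. With quantile normalization and the mean they were 1.00 and 0.42.

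Set against each of the 14 other named probes singly, Ppia included, Hsp90ab1 was higher in myotubes. The difference in the log2 ratio ran from 0.40 against the transferrin receptor gene Tfrc to 1.75 against G6pd2, with a median of 0.74, and in all 14 ratios the myotube arrays lay above the myoblast arrays. The narrowest was the ratio to Tfrc, whose log2 values were −0.29, −0.23 and −0.27 in myoblasts and −0.22, 0.32 and 0.33 in myotubes, so myotube replicate 1 was barely above the myoblasts. After quantile normalization all 14 differences were also above 0. The 14 ratios share the Hsp90ab1 probe and are not independent. On the main scale Ppia and the other 13 named probes all changed below 0. Non-overlapping groups were found there for 61.6% of all tested probes taken singly. How often the ratio of Hsp90ab1 to any tested probe separates the groups was not computed, so the count of 14 has no background beside it.

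For Ppia the direction of the ratios differed between probes on the main scale. Of its 14 ratios, the myotube arrays lay above the myoblast arrays in 6, below in 3 and overlapped in 5, with a median difference of 0.03. The corresponding shares for ratios of Ppia to all tested probes were not computed. After quantile normalization 12 of the 14 differences were above 0, and those to Hsp90ab1 (−0.57) and Tfrc (−0.17) were below. The ratio to Gapdh, the glycolytic enzyme, was −0.10, −0.08 and −0.09 in myoblasts and −0.14, −0.03 and 0.10 in myotubes, and the groups overlapped. The ratio to Hprt, an enzyme of purine salvage, was 1.65, 1.55 and 1.56 in myoblasts and 1.81, 1.81 and 1.79 in myotubes. The 3 probes relative to which Ppia was lower on every myotube array were Hsp90ab1 (−0.71), Tfrc (−0.30) and B2m, the light chain of MHC class I (−0.09, which was 0.07 after quantile normalization).

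**Figure D3:**
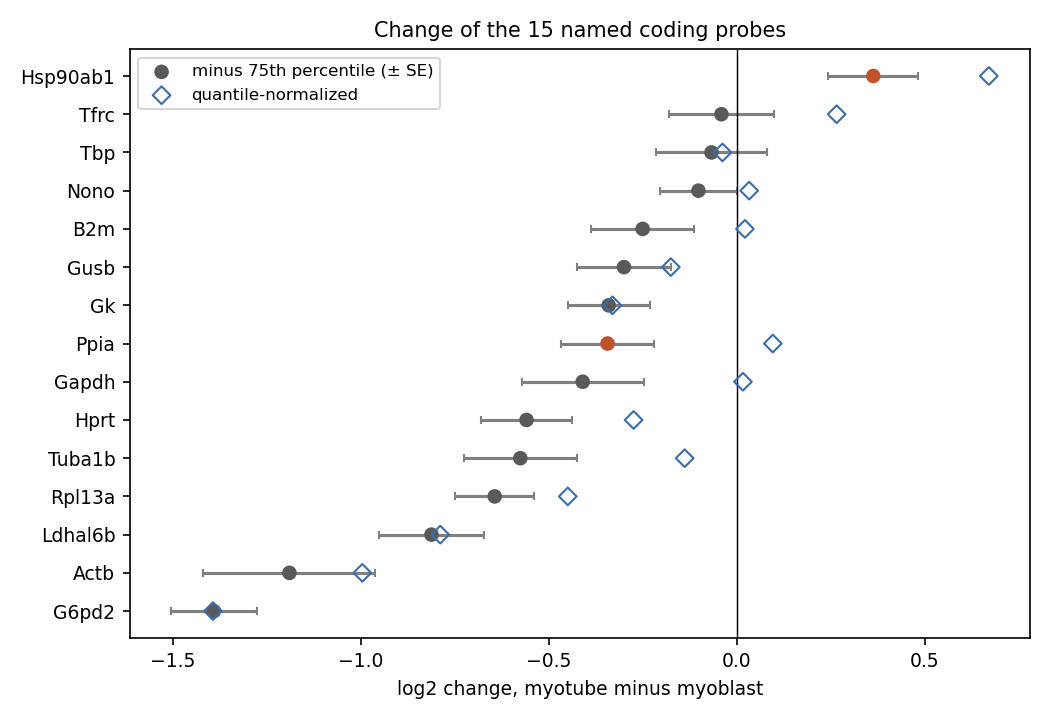
Log2 change from myoblasts to myotubes for the 15 named coding probes, as the limma estimate and SE on the scale minus the 75th percentile (filled points, Hsp90ab1 and Ppia in orange) and after quantile normalization (open diamonds). Hsp90ab1 is highest on both scales, and Ppia moves from −0.34 to 0.10 between them.

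Among the 15 named probes, Hsp90ab1 ranked first by change under the 75th percentile, under quantile normalization and with no scaling. Ppia ranked 8th, 3rd and 8th. The order with no scaling must equal that under the 75th percentile, because 1 number subtracted per array shifts every change alike. The changes of the other 13 ran from −1.39 to −0.04 with a median of −0.41 on the main scale, where 7 of the 13 fell and 0 rose past the threshold in limma, beside 26.9% lower and 23.5% higher among all tested probes. Of the 13, 12 were well above background on all 6 arrays. The exception, Ldhal6b, was so on 3 arrays and is 1 of the 7, so its call rests in part on the filter. After quantile normalization they ran from −1.39 to 0.27, with 4 of 13 above 0. Tfrc then rose past the threshold (0.27, limma adjusted p = 0.0269). Tuba1b no longer fell past it (−0.14, limma adjusted p = 0.2045), and the other probes called lower on the main scale still did. Of all tested probes, 24.7% were called higher and 25.7% lower on that scale.

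The closest profiles were chosen by the root mean square difference of levels centred over the 6 arrays, on the main scale. For Ppia these were B2m (0.06), Gapdh (0.08) and Hprt (0.11). For Hsp90ab1 they were Tbp, which encodes the TATA-binding protein (0.23), Nono, which encodes an RNA-binding nuclear protein (0.24), and Tfrc (0.27). The nearest neighbour of Hsp90ab1 was thus further away than the 9 nearest of Ppia. These distances rest on 6 arrays and carry no test.

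The spots of a probe share the RNA of their array and are not replicates, but they show how precisely each array was read. For Hsp90ab1 the SD over the spots used was 0.02 to 0.03 on the log2 scale on every array. This is far below the gap between the highest myoblast array (7.28) and the lowest myotube array (7.48). The highest used spot on any myoblast array was 7.33, and the lowest used spot on any myotube array was 7.42.

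For Ppia the SD over the spots used was 0.02 to 0.04 on 5 arrays and 0.13 on myotube replicate 1. On that array the spots ran from 8.83 to 9.33, across the range of the myoblast spots (9.11 to 9.25). None of its spots carried an outlier mark. On the other myotube arrays the spots ran from 8.87 to 9.03 and from 8.58 to 8.66.

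Outlier marks of the scanner software were unevenly spread. For Ppia 13 of 120 spots were left out, 12 of them on myoblast arrays, and 10 of the 13 were brighter than every spot kept on their array. For Hsp90ab1 it was 7 of 120 spots, 6 of them on myoblast arrays, and 3 were brighter than every spot kept. All marks were for departure from the other spots of the probe, and 0 were for uneven pixels. With these spots kept, the difference for Ppia was −0.39 and passed in limma (adjusted p = 0.0342), as did 27% of the tested probes in that direction, and the change of Hsp90ab1 was 0.36 (limma adjusted p = 0.0419). With the median over spots in place of the mean, Ppia also passed (−0.36, limma adjusted p = 0.0401).

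**Figure D4:**
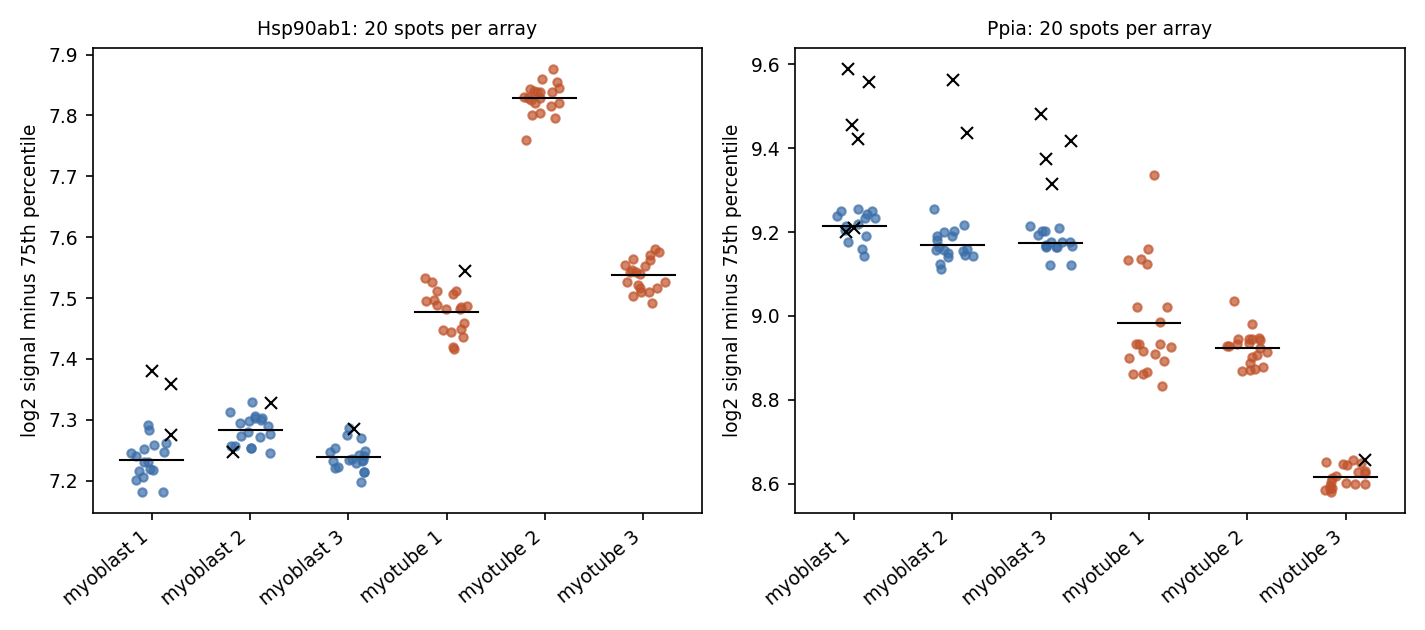
Log2 signal minus the 75th percentile for the 20 spots of Hsp90ab1 (left) and Ppia (right) on each array, with crosses for spots left out because of an outlier mark and lines for the mean of the spots used. The spots used for Hsp90ab1 do not overlap between myoblast and myotube arrays, whereas those for Ppia on myotube replicate 1 reach 9.33, above the myoblast means, and most crosses for Ppia lie above the other spots of myoblast arrays.

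The array layout is the same on all arrays, so each spot position gives a comparison of its own. At the 15 positions of Hsp90ab1 that were used on all 6 arrays, the myotube mean was higher at 15, by 0.33 to 0.43, and the groups did not overlap at any of them. At the 13 such positions of Ppia the difference was below 0 at 13, from −0.39 to −0.22, and the groups did not overlap at 11. The positions share the same 6 RNA samples, so these counts describe the reading of the arrays and not the cells.

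The headers of the arrays carry 3 different scan dates, called scans 1 to 3 here. Myoblast replicates 1 to 3 and myotube replicate 1 shared scan 1, whereas myotube replicates 2 and 3 had scans 2 and 3 to themselves. Within scan 1, in the fit with scan as a block, the change was 0.23 for Hsp90ab1 (SE 0.07, limma adjusted p = 0.0671) and −0.20 for Ppia (SE 0.07, limma adjusted p = 0.0853), and 47.7% of all tested probes passed in that fit. It sets 1 myotube array against 3 myoblast arrays, so its SE and p rest on the spread of the myoblasts alone and say nothing of the spread among myotubes. The log2 ratio of Hsp90ab1 to Ppia was higher in the myotube array by 0.43 within scan 1, against 0.71 over all arrays. With 1 myotube array in that scan the exact permutation p cannot go below 0.25, which is the value found. Differences between scans and differences between myotube cultures cannot be told apart for replicates 2 and 3.

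Some control spots also differed between the groups. The difference between 3′ and 5′ control spots of Gapdh, a reading that can vary with RNA integrity and with labelling, was 1.11, 1.06 and 1.10 in myoblasts and 1.05, 0.80 and 0.72 in myotubes. Myotube replicate 1 lay nearest the myoblasts in this reading, as it did in the ratio of Hsp90ab1 to Ppia. The same reading for Pgk1 was 7.81, 7.55 and 7.70 in myoblasts and 7.70, 7.09 and 6.89 in myotubes, where the groups overlapped and myotube replicate 1 lay within the myoblasts. The control probe ERCC-00062_278, named for a synthetic spike-in, stood at 1.15, 1.11 and 1.16 in myoblasts and 0.62, −0.11 and 0.08 in myotubes. Of the 12 ERCC probes it alone was well above background on all its spots. ERCC-00104_60, well above background on 37.6% of its spots, stood the other way, at −4.65, −4.57 and −4.87 in myoblasts and −4.59, −3.70 and −3.45 in myotubes. ERCC-00012_90 overlapped between the groups (−3.74 to −3.27 and −3.80 to −3.37). Against ERCC-00062_278 both genes were higher in myotubes, Hsp90ab1 by 1.31 and Ppia by 0.60. The part of these control signals in the results for Hsp90ab1 and Ppia was not tested, and the labels do not say that spike-in RNA was added.

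**Figure D5:**
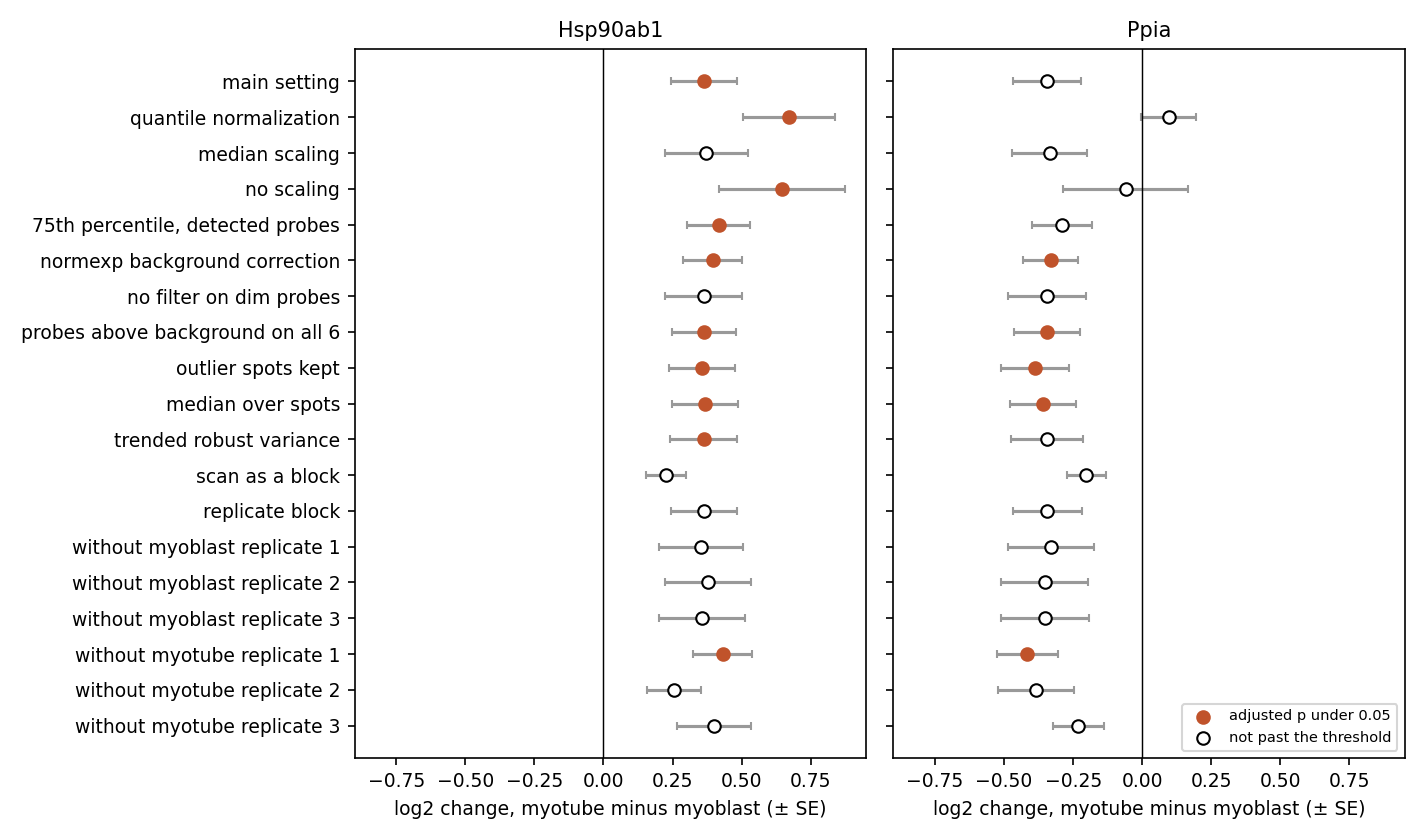
Log2 change from myoblasts to myotubes (± SE, limma) for Hsp90ab1 (left) and Ppia (right) in the main setting and under each alternative, with filled points for an adjusted p under 0.05. Hsp90ab1 lies above 0 throughout, between 0.23 and 0.67, and Ppia lies below 0 except under quantile normalization, where it is at 0.10.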

How the data were processed

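The deposited scanner files of 6 arrays in 1 colour were analysed. Agilent Feature Extraction 11.0.1.1 made them, per the file headers, and their intensity values are processed signals with the background subtracted and no scaling between arrays. The array design refers to build mm9, per the file headers. The deposited series table holds no probe with a gene accession and was not used. Gene names came from a RefSeq table of assembly GRCm38.p6, in which all 15 accessions, taken without version, matched 1 gene each.

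Of 62939 spots, 1439 control spots and 300 spots with a negative-control name were left out. Spots with an outlier mark were dropped, the log2 signal was averaged over spots, and each array's 75th percentile over probes was subtracted. Tests used probes with a value on all 6 arrays that were well above background on 3 or more of them. They were made with limma 3.58.1 in R 4.3.3 (lmFit, eBayes, Benjamini-Hochberg over all 35416). Limma 95% intervals are not adjusted. Ratios were tested by exact permutation over arrays with scipy 1.17.1 in Python 3.11.15. The limma step was tested on simulated data. The number of arrays limits the precision, and p-values measure the spread between these arrays.

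The genes, lists and tests were chosen with earlier results of these data known. The text names Hsp90ab1, Ppia and their 3 nearest probes each by centred level. It also names, chosen after their values were seen, the extremes of the ratios and some other named probes. The alternatives changed scaling, background correction (normexp, offset 50, on median signals, since mean signals were not used here), filters, spots, variance model, scan or replicate block, and left out each array. Keeping only bright probes among the other 13 was chosen after the data were seen.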

Additional observations from a re-analysis of the deposited data

How the results depend on the processing

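Hsp90ab1 kept a rise in all 18 alternatives (0.23 to 0.67) and passed in 9, with limma adjusted p between 0.0137 and 0.120. It missed the threshold with median scaling (0.37), without the filter on dim probes (0.36), with scan as a block (0.23) and with the replicate block (0.36, limma adjusted p = 0.0584). Leaving out 1 array at a time gave 0.26 to 0.43. Ppia was below 0 in 17 of 18 and turned to 0.10 under quantile normalization. It passed in 5, with normexp (−0.33), with only probes well above background on all arrays (−0.34), with outlier spots kept (−0.39), with the median over spots (−0.36) and without myotube replicate 1 (−0.42); limma adjusted p ran from 0.0176 to 0.863. Leaving out 1 array at a time gave −0.42 to −0.23. The cause of these changes was not tested. The filters on probes, the trended robust variance and the replicate block cannot move the estimates. Under them these stayed at 0.36 for Hsp90ab1 and −0.34 for Ppia, so their direction was fixed. The ratio of Hsp90ab1 to Ppia stayed above 0 in all 15 alternatives (0.43 to 0.85). So did Hsp90ab1 (0.66 to 1.34) and Ppia (0.11 to 0.64) against the other named probes in all 17. The exact tests of these ratios cannot pass 0.05. Some of the alternatives could not move the ratios. Median scaling, no scaling and the percentile over probes well above background change only 1 number per array, which cancels in a ratio. The replicate block leaves the mean difference as it was. Under these alternatives the values were fixed at 0.71, 0.88 and 0.17, so their direction shows nothing about robustness. Pairing by replicate number was not apparent. Deviations of same-numbered arrays correlated at −0.15, −0.0034 and −0.09, and those of differently numbered arrays at −0.12 to 0.14. With 3 arrays per group these values cannot settle whether the arrays were paired. The replicate block moved the count of probes past the threshold from 17860 to 16538. Over the alternatives that count ran from 13399 to 22894, all within 1.5 times the main count. The number of probes tested was not the same in all of them, and the share passing varied more. Without the filter on dim probes 14441 of 60781 passed (23.8%), against 17860 of 35416 (50.4%) in the main setting. The share was 64.6% without myotube replicate 1.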
